A study of Mus musculus with 24 samples.

Results

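Exc-CA1-Camk2d is 1 of the 8 excitatory neuron clusters, and 1 of the 3 labelled CA1, in single-nucleus data from the ventral hippocampus of male mice. Its members are the nuclei that the authors gave this label, and they enter here as counts summed over the nuclei of each library. In single-nucleus RNA sequencing (snRNA-seq) the cluster held 1416 of 30880 nuclei, and the other CA1 clusters, Exc-CA1-Galntl6 and Exc-CA1-Fras1, held 3138 and 1506. In single-nucleus ATAC sequencing (snATAC-seq), where sequenced fragments mark accessible DNA, the same label was on 2227 of 27206 nuclei, against 4644 for Galntl6 and 2011 for Fras1. The 3 clusters are called Camk2d, Galntl6 and Fras1 below, and each name is also that of a gene.

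The mice were C57BL/6J (B6), the strain of the mouse reference genome, and DBA/2J (DBA), 2 inbred strains that received no treatment in this experiment. All animals were adult males of 10 to 16 weeks. Tissue of about 2 animals was pooled into each replicate, and there were 2 libraries per strain and assay. A p-value for strain within the cluster thus measures the spread between libraries of pooled animals. Where strain differences were compared between clusters, the fit removed what the clusters of a library share. That p-value measures the spread left between clusters within the libraries. Nuclei for snRNA-seq were sorted to enrich neurons and those for snATAC-seq were not, so shares of nuclei were not compared between the assays. B6 reads were mapped to mm10 and DBA reads to mm10 with DBA bases at known single-nucleotide variants, which means that a strain difference of a single gene cannot be told apart from a difference of reference or annotation.

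CA1 pyramidal neurons are the main output cells of the hippocampus, and those of its ventral part project to the amygdala, hypothalamus, nucleus accumbens and prefrontal cortex. They are not uniform: superficial and deep cells and cells near the subiculum differ in transcripts and in targets. Camk2d encodes the delta subunit of calcium/calmodulin-dependent protein kinase II (CaMKII), a kinase of synaptic plasticity whose alpha and beta subunits prevail in forebrain pyramidal neurons. Pyramidal neuron subtypes are set apart by transcription factors such as the POU, FOX and CUX homeodomain and forkhead proteins, which bind short DNA words in enhancers.

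The sequences that stand for the results are the central 300 bases of 5 snATAC-seq peaks, on the plus strand of mm10 (GRCm38), in lower case with the matches to a searched word in capitals. The first holds the forkhead (FOX) word, more frequent among peaks that were more accessible in the Camk2d cluster. The next 2 hold the octamer word of POU factors, more frequent among peaks that were less accessible there. These 3 were shown because they hold the word. The fourth is the only peak in the Camk2d gene more accessible in this cluster by the rule below and has no match. The fifth belongs to the peak with the smallest adjusted p for a strain difference unlike that of the other CA1 clusters, and its match is a NEUROD E-box.
chr13:57460032-57460331, intron of Spock1, FOX word at base 71: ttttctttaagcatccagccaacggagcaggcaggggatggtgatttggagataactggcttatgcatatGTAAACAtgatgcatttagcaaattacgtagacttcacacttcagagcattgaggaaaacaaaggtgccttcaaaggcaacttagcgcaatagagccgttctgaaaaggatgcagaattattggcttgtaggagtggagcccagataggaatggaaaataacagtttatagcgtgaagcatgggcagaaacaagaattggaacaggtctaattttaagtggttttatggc
chr2:53959708-53960007, intergenic, octamer at base 150: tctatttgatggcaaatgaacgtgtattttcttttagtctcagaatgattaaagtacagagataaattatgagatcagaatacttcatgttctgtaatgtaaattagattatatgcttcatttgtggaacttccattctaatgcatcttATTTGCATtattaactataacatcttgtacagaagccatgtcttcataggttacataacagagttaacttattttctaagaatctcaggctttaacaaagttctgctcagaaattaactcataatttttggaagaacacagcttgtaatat
chr16:70091614-70091913, intron of Gm49655, octamer at base 30: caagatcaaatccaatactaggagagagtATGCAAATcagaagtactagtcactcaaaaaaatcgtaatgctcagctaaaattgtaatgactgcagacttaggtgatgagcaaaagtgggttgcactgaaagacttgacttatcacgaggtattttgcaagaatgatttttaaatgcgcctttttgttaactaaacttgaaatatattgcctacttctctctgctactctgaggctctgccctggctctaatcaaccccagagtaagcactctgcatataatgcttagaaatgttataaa
chr3:126691088-126691387, intron of Camk2d, no word: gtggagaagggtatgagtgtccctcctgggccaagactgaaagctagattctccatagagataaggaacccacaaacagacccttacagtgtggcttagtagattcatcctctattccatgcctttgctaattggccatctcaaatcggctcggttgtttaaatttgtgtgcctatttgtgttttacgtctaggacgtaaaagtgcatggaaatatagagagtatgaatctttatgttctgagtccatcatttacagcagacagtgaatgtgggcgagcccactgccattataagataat
chr7:43797073-43797372, beside the Klk8 start site, E-box at base 119: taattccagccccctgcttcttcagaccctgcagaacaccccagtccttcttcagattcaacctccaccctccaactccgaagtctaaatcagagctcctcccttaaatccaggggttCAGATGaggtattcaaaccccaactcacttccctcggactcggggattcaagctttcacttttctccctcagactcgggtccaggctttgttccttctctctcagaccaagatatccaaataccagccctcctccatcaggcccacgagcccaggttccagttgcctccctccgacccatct

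The Camk2d cluster held 293 and 335 nuclei in the B6 and 441 and 347 in the DBA libraries of snRNA-seq, with total counts of 2656173 and 3580963 in B6 and 4031329 and 3360615 in DBA. That is 9065 and 10689 counts per nucleus in B6 and 9141 and 9685 in DBA, and 16.5 and 24.2% (B6) and 26.4 and 28.2% (DBA) of all CA1 nuclei. No test was made of these shares. The snATAC-seq totals were 5708628, 9349656, 10157541 and 11307927 from 449, 429, 732 and 617 nuclei. Of the symbols, 24317 were counted in both strains, and 300362 peaks had counts in both. Values are given for the 2 B6 libraries and then the 2 DBA libraries, as counts scaled to a common normalized library size (CPM), and compare a gene between samples, not genes with each other. A level summed over nuclei does not tell more nuclei that hold a transcript from more transcript per nucleus, and the deposited sums hold no barcodes, so barcodes shared between libraries could not be counted.

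The gene that names the cluster was far higher there than in the other CA1 clusters and was also expressed in Cdh12 and Gpc6. Camk2d (chr3:126596302-126846326, plus strand) was at 388, 524, 489 and 459 CPM in the Camk2d cluster, between 41.7 and 54.2 CPM in Galntl6 and between 38.3 and 51.7 CPM in Fras1. All libraries of the cluster lay far above every library of the other CA1 clusters. The mean log2 ratio, with 1 CPM added and taken within a library, was 3.30 ± 0.21 (SD of 8 ratios, 4 libraries by 2 clusters). Over the 8 excitatory clusters, scaled together (so that means differ slightly from those over CA1 alone), the mean was 473 CPM in Camk2d, 264 in Cdh12, 155 in Gpc6, 78 in the entorhinal cluster (ENT), 49.4 in Galntl6, 45.2 in Fras1, 14.2 in the dentate gyrus (DG) and 13.3 in CA3. Galntl6 overlapped Fras1 in its libraries, and DG overlapped CA3. The Camk2d gene body overlaps unconfirmed transcript models on its own strand, and reads could be split between them. The 3 genes whose levels over the 32 excitatory columns were most like those of Camk2d, by Pearson correlation of log2 CPM, were Rab3b (r = 0.915), a small GTPase of secretory vesicles, Klf5 (0.874), a zinc finger transcription factor, and Nrg1 (0.863), the growth factor neuregulin 1. The columns share 4 libraries and are not independent.

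**Figure D1:**
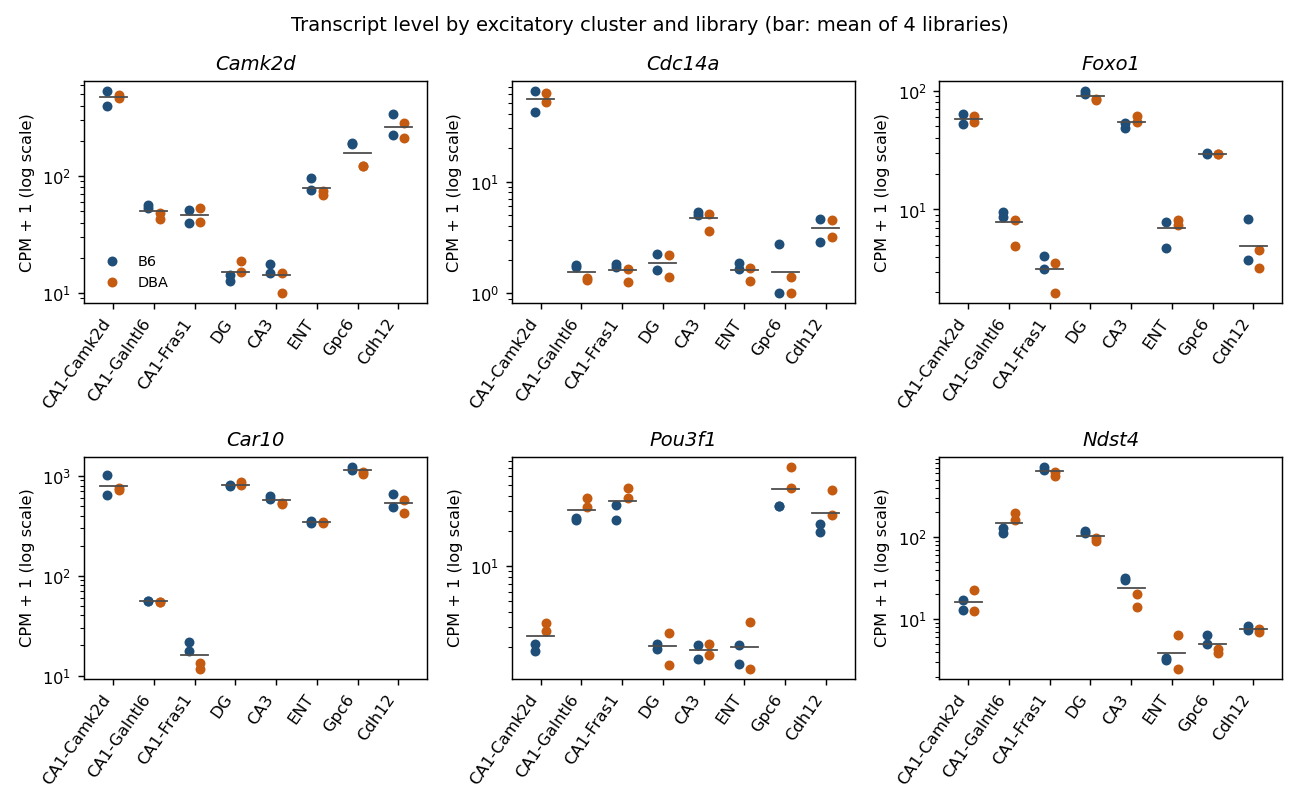
Levels of 6 genes (Camk2d, Cdc14a, Car10, Foxo1, Pou3f1 and Ndst4) in the 8 excitatory clusters, one panel a gene, with a point for each of the 4 libraries (B6 blue, DBA orange), a bar at their mean, and CPM plus 1 on a log axis. Camk2d is highest in its own cluster (mean 473 CPM) and next in Cdh12 (264 CPM), Cdc14a has a mean of 3.75 CPM or less in every other cluster, and Car10 is low in the other CA1 clusters and has a mean of 343 CPM or more in each cluster outside CA1.

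Marker lists, chosen with earlier results of these data known, were used to describe the label. The 5 excitatory markers summed to 1119–1228 CPM in the Camk2d cluster, near Fras1 (1134–1206) and below Galntl6 (1668–1812), and Slc17a7, the vesicular glutamate transporter, was at 319, 338, 350 and 354 CPM. The 10 CA1 markers summed to 2210–2640 CPM, below Galntl6 (6612–7420) and Fras1 (3455–4093), a list that contains the genes Galntl6 and Fras1, and below ENT (2734–3076). Single markers differed. Wfs1, a marker of CA1 pyramidal cells, was at 24.8, 40, 38.3 and 44.4 CPM against means of 7.29 in Galntl6 and 3.74 in Fras1, and between 1.78 and 6.11 CPM on average in the 5 clusters outside CA1. Mpped1 stood at 193, 189, 231 and 191 CPM against means of 195 and 218, with overlap. Fibcd1 was at 75.9, 32, 40.2 and 27.3 CPM, between Galntl6 (69) and Fras1 (7.63), and at most 5.06 CPM outside CA1. Pou3f1, also in the list, was among the lowest of all. Wfs1 and Fibcd1 were thus above every cluster outside CA1 on average, while the summed list was below that of ENT, and the cluster is called here by its label.

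Markers of superficial and deep CA1 cells summed to 78.7–123 CPM, below 288–345 in Galntl6 and 662–834 in Fras1. The 5 entorhinal markers summed to 234–319 CPM in Camk2d, 222–241 in Galntl6, 313–447 in Fras1 and 280–294 in ENT. The 14 markers of subiculum and prosubiculum summed to 1519–1679 CPM in Camk2d, 456–514 in Galntl6 and 1737–2025 in Fras1. Outside CA1 their sum was 1654–1776 in CA3, which overlaps Camk2d, and higher in Cdh12 (2156–2928), Gpc6 (2811–3174) and ENT (5118–5834). Tshz2, a zinc finger gene of deep-layer and subicular neurons, was the main difference from Galntl6 in that list, with 586, 1041, 796 and 809 CPM against 13.8 (mean) in Galntl6 and 614 in Fras1. Fn1 (16.1, 36.4, 28 and 17.7 CPM) and Nts (0.73, 0.556, 1.22 and 1.99 CPM) were far below Fras1, at 170 and 28.4 CPM. Markers of other cells were low but present: interneurons 36.2–44.5 CPM in B6 and 30.9–32.9 in DBA, oligodendrocyte precursors 14.1–20.1 and 7.81–12.4, vascular cells 2.97–3.39 and 3.47–3.71, microglia 207–212 and 161–172, astrocytes 155–196 and 197–209, and oligodendrocytes 137–156 and 90.4–93.4. Gad1 and Gad2, which make GABA, were at 2.78 CPM or less. None of these sums overlapped between strains: those of astrocytes and vascular cells were higher in DBA and the others lower. The sum of Cajal-Retzius markers did overlap, at 40.1–103 CPM in B6 and 68–74.8 in DBA. With 2 libraries per strain, sums can lie apart by chance, and their part in the strain results was not tested.

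Compared with all excitatory clusters over 12487 symbols, the Camk2d profile (log2 of CPM plus 1, within a library, mean of 4 libraries) correlated with Galntl6 at r = 0.937, Fras1 0.920, CA3 0.917, ENT 0.902, Cdh12 0.901, Gpc6 0.892 and DG 0.880. These are correlations across genes, which are not independent replicates, and libraries of the cluster itself correlated at 0.975 in B6 and 0.986 in DBA. The order put both CA1 clusters first, with CA3 next to Fras1.

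Against the other CA1 clusters, genes were called higher or lower where all 8 ratios were beyond 2-fold in one direction. The authors made the clusters from these transcripts, so the calls describe the cluster and no test was made. Of 12487 symbols at 5 CPM or more in 1 of the 3 clusters, 146 (1.17%) were higher and 61 (0.489%) lower. At the edge, the smallest log2 ratio was 1.00 for Atp2b4, a plasma membrane calcium pump, which was called, and 0.99 for Myo10, an unconventional myosin, which was not.

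The clearest of the higher genes was Cdc14a (chr3:116272553-116424032, minus strand), a dual-specificity phosphatase. It was at 40.5, 62.3, 60.4 and 49.8 CPM in Camk2d and at a mean of 0.54 CPM in Galntl6 and 0.599 in Fras1, with a mean log2 ratio of 5.11 ± 0.39. Its mean was 3.75 CPM in CA3, 2.81 in Cdh12 and under 1 CPM in the others, so its mean in every other cluster was a small part of that in Camk2d. Hmcn1, the extracellular matrix protein hemicentin 1, was as low outside the cluster, with 21.5, 38.4, 83.8 and 114 CPM against 2.02 and 2.14 and no more than 2.11 CPM on average outside CA1. The noncoding Gm20631 lies inside Hmcn1 on the opposite strand and followed it at 14.2, 24.2, 30 and 53.8 CPM against 1.55 in both. Both had their higher values in the DBA libraries.

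Among the named genes, a glypican was higher and 2 enzymes of heparan sulfate were lower. Gpc3 (chrX:52272426-52613950, minus strand), a glypican that carries heparan sulfate chains, was at 147, 62.3, 153 and 92.3 CPM against means of 3.85 and 4.76, and A630012P03Rik, which overlaps it on the opposite strand, was at 118, 51.2, 110 and 84.3 against 3.16 and 3.48. Ndst3 and Ndst4, enzymes that sulfate those chains, were lower. Ndst3 was at 59.5, 52.3, 49 and 33.3 CPM against 521 and 607, and Ndst4 at 16.1, 11.7, 11.5 and 21.4 against 145 and 626. Both enzymes were many times lower in every library. Genes of heparan sulfate were not examined as a list. Of other such genes, Gpc1 (mean log2 ratios of 0.02 to Galntl6 and −0.18 to Fras1) was not called. Nor were Ext2 (−0.03 and 0.03), Hs6st1 (0.43 and 0.15), Sulf1 (0.94 and 1.98) and Sulf2 (−0.38 and −2.64). Col25a1, a transmembrane collagen, was at 25.6, 22.8, 11.9 and 9.11 CPM against 155 and 127, with a mean log2 ratio of −3.05 ± 0.79.

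The other higher genes named included synaptic and secreted proteins. Car10, a carbonic anhydrase-related protein that binds neurexins, was at 639, 1006, 718 and 743 CPM against 53.6 in Galntl6 and 14.7 in Fras1. Unc13c, a vesicle priming protein, was at 113, 304, 235 and 187 CPM against 11.9 and 4.94. Il1rapl2, a member of the interleukin-1 receptor family found at synapses, was at 633, 981, 706 and 526 CPM against 79.2 and 12.9. For these, Fras1 was the lower of the other CA1 clusters. Vwc2l, a secreted protein of the chordin type, went the other way with 131, 232, 202 and 204 CPM against 3.21 in Galntl6 and 15.9 in Fras1. Cpa6, a secreted carboxypeptidase, was at 46.4, 144, 100 and 93.7 CPM against 4.38 and 2.55, and Plpp4, a lipid phosphatase, at 32.9, 52.6, 60 and 52.7, with a mean log2 ratio of 3.31. Tmem164 had a mean log2 ratio of 3.43. The B6 library numbered 2 was the lowest of the 4 for Car10, Unc13c, Vwc2l, Cpa6 and Plpp4.

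Among transcription factors, Cux2, a homeodomain factor of upper-layer cortical neurons, was at 34, 59, 101 and 95.1 CPM against 2.3 and 1.59 (mean log2 ratio 4.54 ± 0.71), with far higher means in Gpc6 (409) and Cdh12 (177). Lef1, which acts in Wnt signalling, was at 8.76, 26.7, 29.5 and 16.8 CPM against 0.867 and 0.519. Pou3f1 (chr4:124656807-124660655, plus strand), a POU factor, was nearly off: 1.1, 0.834, 2.19 and 1.71 CPM against 29 in Galntl6 and 34.4 in Fras1, with a mean log2 ratio of −3.73 ± 0.25. It was also at 1.04 CPM or less in DG, CA3 and ENT and at 44.9 in Gpc6 and 27.6 in Cdh12. Gm2164 and 4933407E24Rik, noncoding genes beside it on chromosome 4, shared this: Gm2164 was at 9.86, 17.8, 12.4 and 11.1 CPM against 380 and 479, and 4933407E24Rik at 2.56, 1.95, 0.975 and 0.57 CPM against 37.5 and 40.2. So 3 of the 10 lower genes named lay at 1 locus.

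The other lower genes named were Stac, an adaptor of calcium channels (chr9:111561437-111690348, minus strand), at 1.1, 1.39, 0.975 and 1.42 CPM against 33.3 and 113, the noncoding Gm2115, at 23, 18.4, 21.4 and 18.5 against 171 and 184, Pde11a, a phosphodiesterase that degrades cyclic nucleotides and is known from ventral CA1, at 55.9, 70.6, 76.8 and 70.9 against 340 and 345, and Parm1, a mucin-like membrane protein, at 49.7, 42.3, 30.2 and 31.9 against 173 and 279. In each, no library of Camk2d overlapped a library of the other CA1 clusters, as the rule requires.

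**Figure D2:**
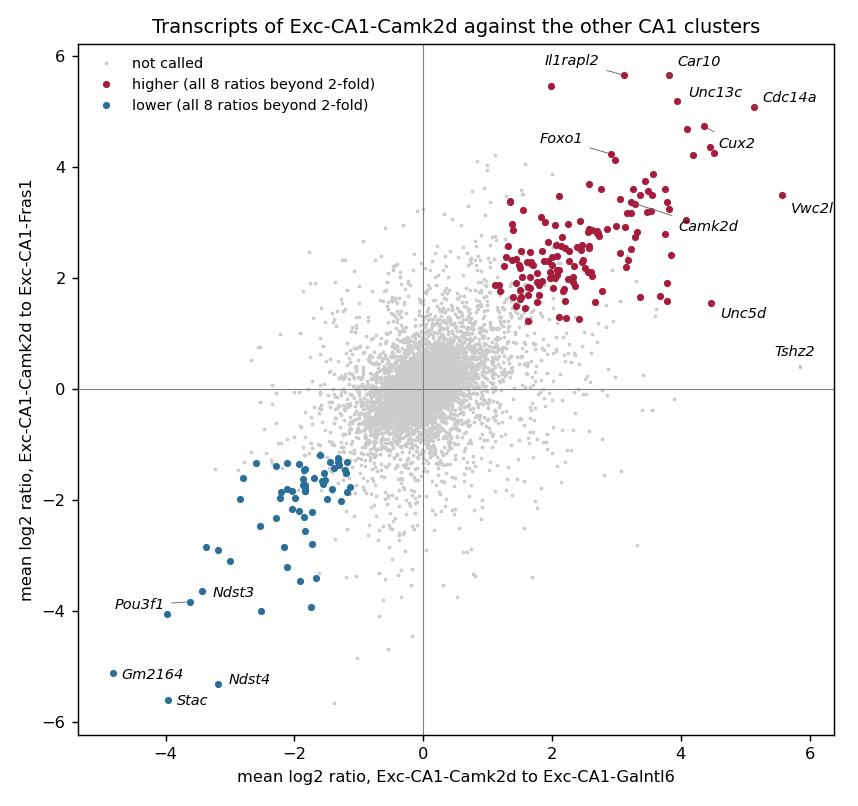
Mean log2 ratio of CPM plus 1 over 4 libraries, Camk2d cluster to Galntl6 (horizontal) and to Fras1 (vertical), for 12487 genes, with the 146 higher and 61 lower genes coloured and 15 named. Cdc14a and Camk2d lie near the diagonal at the upper right, Pou3f1 near it at the lower left, and Il1rapl2, Car10 and Ndst4 lie off it, farther from Fras1 than from Galntl6.

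The higher genes were often shared with clusters outside CA1. On the scale of all 8 clusters, the Camk2d cluster had the highest mean for 53 (36.3%) of the 146, Gpc6 for 33 (22.6%), DG for 23 (15.8%), Cdh12 for 19 (13%), and CA3 and ENT for 9 each (6.16%). Gpc6 stood above Camk2d in 51 of them and Cdh12 in 40. Of the 61 lower genes the cluster had the lowest mean for 2 (3.28%), while DG was lowest for 17, ENT for 14 and Gpc6 for 12. Each of the 5 clusters outside CA1 stood above Camk2d in 29 (ENT) to 37 (Cdh12) of them.

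Gene lists of neuronal function were described by the same ratios, where the median over all genes was −0.03 and the background 1.17% higher and 0.489% lower. In the CaM kinase family 1 of 14 was higher, Camk2d itself, and none lower, with a list median of 0.43. Camk2a, the alpha subunit of CaMKII, was at 740, 755, 584 and 611 CPM against 1091 in Galntl6 and 682 in Fras1 (log2 ratio −0.36), Camk2b had a ratio of −0.40 and Camk2g of 0.82. Among the 4 CaMKII subunits, only Camk2d passed the rule. The inhibitor Camk2n2 had a ratio of 1.17, Camk1 of 0.96 and Camk4 of 0.40.

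Receptors for the fast transmitters gave 1 call. None of 27 ionotropic glutamate receptor and auxiliary genes was called (median −0.34). Cacng2, the AMPA receptor auxiliary subunit stargazin, came nearest at 67.9, 77, 70.7 and 78.3 CPM against 34.7 and 10.1 (1.90), while Gria4 had a ratio of 0.71, Grin2a of −0.74 and Grin3a of −1.08. Of 12 GABA-A subunits 1 was lower (median −0.07): Gabrg3, at 205, 150, 152 and 108 CPM against 618 and 683.

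Ion channels were the next lists. Of 38 potassium channel genes, 1 was higher and 2 were lower (median −0.00). Kcnc1, the fast delayed rectifier Kv3.1, was at 57, 64.5, 60.9 and 68.6 CPM against 26 and 12.8. Kcnh7, of the ERG type, was at 171, 227, 146 and 162 CPM against 681 and 1950, and Kcnn2, the calcium-activated SK2 channel, at 449, 401, 417 and 342 against 1167 and 1152. Kcnh7 and Kcnn2 were lower in every library, and Kcnh7 by most against Fras1. None of 23 sodium, calcium and HCN channels was called (median −0.10), with a ratio of −1.29 for Cacnb2.

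Of 53 axon guidance and adhesion genes, 3 were higher and none lower (median 0.14). Unc5d, a netrin receptor, was at 1066, 1132, 1243 and 1234 CPM against 55.7 in Galntl6 and 405 in Fras1. Pcdh7, a protocadherin, was at 1103, 1452, 1184 and 1196 CPM against 454 and 443, and Cdh9, a classical type II cadherin, at 193, 195, 301 and 292, with a ratio of 2.33. Dcc, also a netrin receptor, was at 2026, 2724, 2522 and 2198 CPM against 1158 and 229 and was not called. Unc5d and Dcc were thus at their highest mean of the 3 CA1 clusters here, and of them only Unc5d passed the rule. Unc5c, another netrin receptor in the list, was not among the genes called.

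Of 28 neuromodulator and neuropeptide receptors 3 were higher and 1 lower (median 0.07). Drd1 was at 4.38, 4.17, 5.85 and 8.83 CPM against 0.116 and 0.125, and Drd2 at 6.21, 6.67, 4.63 and 8.26 CPM against 0.244 and 0.299. These dopamine receptors were near 0 in the other CA1 clusters and at low levels here. Trhr, the thyrotropin-releasing hormone receptor, was at 29.6, 44.5, 9.75 and 9.4 CPM against 1.04 and 1.85, and Adra1a, an adrenergic receptor, at 8.03, 10.8, 8.53 and 6.26 against 39.2 and 85.3. None of 6 neuropeptides (median −0.25) and none of 19 activity-induced genes (median −0.48) was called.

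Of 35 transcription factors of pyramidal neuron identity, 2 were higher, Cux2 and Rorb, and 3 lower, Pou3f1, Pou3f3 and Fezf2 (median 0.06). Rorb, a nuclear receptor of layer 4 neurons, was at 27, 15, 27.5 and 19.6 CPM against 5.56 and 5.23. Fezf2, a zinc finger factor of subcortically projecting neurons, was at 1.1, 3.06, 2.92 and 4.27 against 11.3 and 55. Pou3f3 (chr1:42695768-42703176) was at 5.11, 13.6, 11.9 and 9.11 CPM against 37.1 and 31.1 (mean log2 ratio −1.75 ± 0.53). Pou3f1 and Pou3f3 belong to the same POU class, and both were low here, while Pou2f1, Pou2f2 and Pou6f1, with ratios of −0.03, 0.08 and −0.65, were not called.

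After the sequence words below were seen, the FOX genes were looked up too. Foxo1 (chr3:52268336-52353221, plus strand), a forkhead factor controlled by insulin signalling, was called higher, at 61.7, 50.3, 59.5 and 52.4 CPM against 6.71 (3.88–8.36) in Galntl6 and 2.13 (0.949–2.99) in Fras1, a mean log2 ratio of 3.58 ± 0.80. Its level was similar or higher in DG (89.4) and CA3 (53.7), and 28.4 in Gpc6, 6.04 in ENT and 3.95 in Cdh12. Among the other FOX genes in the set, Foxo3 (0.50) and Foxn3 (0.59) had small ratios, and none was called.

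**Figure D3:**
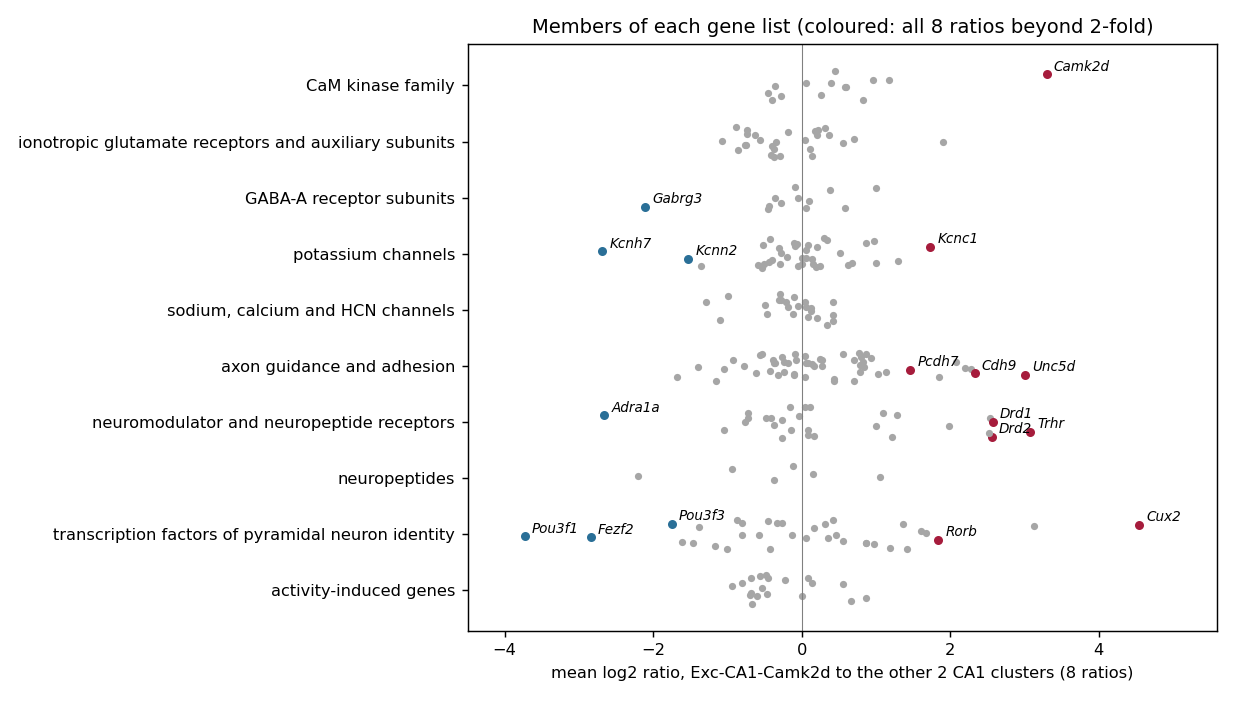
For each gene list, every member's mean log2 ratio of the Camk2d cluster to the other CA1 clusters (points, spread vertically at random for clarity), with called members coloured and named. The list medians lie between −0.48 (activity-induced genes) and 0.43 (CaM kinases), close to that of all genes (−0.03), and the called genes lie in the tails.

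Accessibility was compared in the same way. The labels of snATAC-seq nuclei were transferred from snRNA-seq through counts at genes, so these calls too are a description. Of 142932 peaks at 2 CPM or more in 1 of the 3 clusters, 732 (0.512%) were higher in Camk2d and 953 (0.667%) lower. They were mostly far from start sites: 13.6% of the peaks compared were promoter peaks, within 500 bp of a start site, against 2.19% of the higher and 1.99% of the lower, and intergenic peaks made up 36.7%, 54.9% and 53.2%. Of the higher peaks, 461 (63%) were at their highest in Camk2d among the 8 clusters and 146 (19.9%) in Gpc6. Of the lower peaks 42 (4.41%) were at their lowest there.

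Peak and transcript calls were set side by side. Of the higher genes with a compared peak in the gene or within 500 bp, 36 of 119 (30.3%) had a higher peak and 8 (6.72%) a lower one, and of the lower genes 2 of 52 (3.85%) had a higher and 19 (36.5%) a lower peak. Among the 10426 genes called neither way, 155 (1.49%) had a higher and 264 (2.53%) a lower peak. The nuclei and the label transfer link both readouts, so no test was made.

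In the Camk2d gene 1 of 18 peaks was higher and none lower. The higher one was the intronic peak chr3:126691049-126691426, whose sequence is given above, at 4.14, 4.58, 4.3 and 3.79 CPM against means of 0.217 and 0.275. The promoter peak chr3:126595726-126598338 was at 37.9, 38, 38.4 and 37.6 CPM against 19.9 and 17.5, and was not called (lowest log2 ratio 0.78, mean 0.99). At Cdc14a, a promoter peak, chr3:116405978-116406399, was at 5.13, 8.65, 9.99 and 6.26 CPM against 0.174–0.345 in Galntl6 and 0–0.211 in Fras1, so the peak was open in the Camk2d cluster and at or near 0 in both others. At Lef1 an intronic peak, chr3:131154345-131156037, was at 7.61, 7.23, 8.19 and 6.96 CPM against 1.93 and 0.966. The Pou3f1 promoter peak chr4:124656233-124658103 was at 19.5, 19.1, 14.7 and 16.7 against 46.3 and 50.2 (−1.41). That promoter was less accessible yet not closed, where the transcript was near 1 CPM.

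Stac had 3 lower peaks, all intronic, among them chr9:111678712-111679787 at 2.15, 1.02, 0.699 and 1.94 CPM against 10.9 and 17.8. Ndst3 (−1.46), Ndst4 (−1.79 and −1.75) and Col25a1 (−2.26) had lower peaks as well. Not every gene had peaks of 1 direction. Car10 had higher peaks (1.92 and 1.84) and a lower one (−1.49), Vwc2l and Unc13c each had 1 higher (1.63 and 1.92) and 1 lower (−1.46 and −1.55), and Il1rapl2, a higher gene, had a lower peak (−1.63).

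By the rule for named peaks, the most pronounced higher peak was the intergenic chr10:125187290-125188520, at 12.6, 11.6, 12.9 and 9.25 CPM against 0.531–1.07 and 0.348–1.03. In Spock1, a matrix proteoglycan gene whose transcript was also higher (log2 ratios of 1.55 to Galntl6 and 3.22 to Fras1), an exon peak chr13:57435716-57436558 was at 11.1, 16.6, 15.1 and 12.8 CPM. The intronic peak of the printed sequence with the FOX word was at 5.6–8.45 CPM against 0.407–0.967 and 0.343–1.24. The other higher peaks named were chr10:100856582-100856932 (6.29, 8.35, 6.99 and 6.34 CPM) and chr8:18446779-18447617 (7.78, 10.8, 10.2 and 7.67 CPM). The named lower peaks were chr1:7750265-7751355, at 0.993, 0.814, 0.3 and 1.41 CPM against 10.3–14.2 and 11.1–18.3, chr3:149258246-149259422, at 2.15, 1.63, 1.4 and 1.67, and chr4:100159724-100160734 in an intron of Ror1, a Wnt receptor gene whose transcript was lower too, at 1.82, 2.04, 0.699 and 1.41.

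The central 300 bases of the peaks were searched on both strands for 9 words bound by factors of neurons. The octamer of POU factors, ATGCAAAT, was in 148 (15.5%) of the lower peaks, 14 (1.91%) of the higher and 2.76% of all compared. The FOX word GTAAACA was in 74 (10.1%) of the higher peaks, 27 (2.83%) of the lower and 4.13% of all. The NEUROD E-box CAGATG was in 301 (41.1%) of the higher, 30.7% of the lower and 30.6% of all, and the AP-1 word TGANTCA in 10.4%, 19.4% and 15.1%. The remaining words were in 6.4% or less of each set: LEF1/TCF CTTTGAT in 4.37% of the higher, 6.4% of the lower and 4.44% of all, EGR GCGTGGG in 2.32%, 1.15% and 2.86%, ROR TAGGTCA in 1.91%, 1.05% and 1.89%, CUX ATCGAT in 0.41%, 1.68% and 1.01%, and the MEF2 word in 0%, 0.105% and 0.154%. A match is a description of the sequence and not a bound site.

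Base composition moved with the sets: median GC content was 46.3% over all, 44% in the higher and 39.7% in the lower peaks, and CpG dinucleotides averaged 5.93, 3.06 and 2.68 per window. Within windows of 35 to 45% GC outside promoters (53765 in all, 402 higher and 567 lower), the octamer was in 3.99% of all, 2.49% of the higher and 16.9% of the lower, and the FOX word in 5.26%, 12.2% and 4.06%. The E-box was in 33.1%, 39.8% and 31.4% and AP-1 in 18.7%, 9.7% and 19.6% of all, higher and lower windows. In this band too the octamer was most frequent in the lower windows and the FOX word in the higher. The octamer share of all windows was 3.99%, against 2.76% without the band, and the E-box shares lay closer together. Base composition was not matched within the band.

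**Figure D4:**
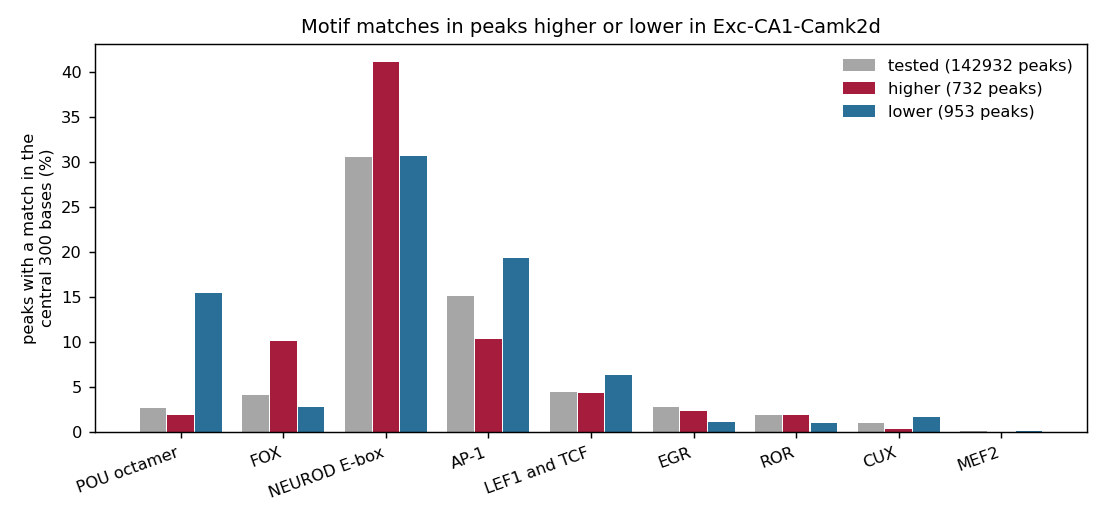
Percent of the central 300-base windows of all compared, higher and lower peaks that hold each of the 9 words, as bars from 0. The octamer bar of the lower peaks (15.5%) and the FOX bar of the higher peaks (10.1%) stand above those of all peaks (2.76 and 4.13%).

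The rule chose the lower peaks for their levels in the 3 CA1 clusters, so those are a description. Over the 8 clusters the median of the 148 was 1.05 CPM in Camk2d, 5.73 in Galntl6, 7.25 in Fras1, 1.77 in Cdh12, and between 0.479 and 0.774 in DG, CA3, ENT and Gpc6. The 805 lower peaks without an octamer had nearly the same medians, 1.17 in Camk2d, 6.02 in Galntl6, 7.27 in Fras1 and between 0.637 and 1.33 in the rest. The printed intergenic octamer peak was at 0.799–1.23 CPM in Camk2d against 9.73–12 in Galntl6 and 15.9–25.1 in Fras1, and the printed peak in Gm49655 at 0.617–1.63 against 10.4–13 and 7.38–10.6. Gpc6, where the Pou3f1 transcript was highest, stood above Camk2d in 61 (41.2%) of the octamer peaks and Cdh12 in 101 (68.2%), against 36.4% and 53.2% of the lower peaks without one. DG stood above it in 22.3% and 28.4%. The 74 higher peaks with the FOX word, also chosen for their levels in CA1, had a median of 5.37 CPM in Camk2d. In the 7 other clusters it was between 0.812 and 1.66 CPM. The 658 without the word had 4.82 CPM and between 0.676 and 1.36. The Foxo1 transcript stood at a similar or higher level in DG and CA3. Whether POU or FOX factors act at any of these peaks was not tested.

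Strain was then compared within the Camk2d cluster, with edgeR's quasi-likelihood test over all symbols and Benjamini-Hochberg adjustment. Of 13782 symbols tested, 1296 (9.4%) differed at adjusted p below 0.05, 513 (3.72%) higher and 783 (5.68%) lower in DBA. Camk2d itself did not pass (log2 difference 0.05, SE 0.14, adjusted p = 0.869). Without the DBA library numbered 2 or 3, which leaves 1 DBA library assumed to vary like the B6 pair, 371 and 364 symbols were called, and without the B6 library numbered 2 or 3, 2165 and 1952. DESeq2 called 525, every one of which edgeR called too.

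Most strain differences were common to the CA1 clusters. Of 1217 called symbols tested in all 3 clusters, 1171 differed in the same direction in both others, 897 were called in both and 104 in neither. The clusters come from the same libraries and are not independent. The 10 named in each direction were called in all 3 clusters, and only Schip1 among them was called between clusters (0.48, adjusted p = 0.0485), with 1333, 1298, 74 and 88.4 CPM in Galntl6 and 2068, 1999, 56.9 and 65.5 in Fras1, and not by DESeq2 (adjusted p = 0.648). Of these, Atp5o, a subunit of ATP synthase, was at 16.1 and 20.6 CPM in B6 and 431 and 394 in DBA (log2 difference 4.47, SE 0.16, adjusted p = 5.29e-09), Rnf121, a ubiquitin ligase, at 38.3 and 38.9 against 779 and 773, and Sv2c, a synaptic vesicle protein, at 8.76 and 11.4 against 65.1 and 64.4. Lower in DBA were mt-Atp6, a mitochondrially encoded ATP synthase subunit, at 259 and 531 against 6.09 and 3.13 (−6.38, SE 0.37, adjusted p = 4.07e-07), Schip1, a cytoskeletal partner of ankyrin, at 1126 and 1249 against 69.5 and 73.5, and Fggy, a carbohydrate kinase, at 43.4 and 38.4 against 2.68 and 4.84. In these the strains were far apart in every library. Rnf121 and Fggy overlap no gene on their strand, and Atp5o, Sv2c, mt-Atp6 and Schip1 do.

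The other symbols of that group that rose in DBA were Gm20324 (4.25), Stab2 (3.71), Pisd (3.08), Sfi1 (3.01), Mlycd (2.80), Rap1gapos (2.52) and Sav1 (2.39), and those that fell were Arhgap26 (−5.10), Cox16 (−4.89), Pakap.1 (−4.65), Glcci1 (−4.03), Umad1, Rab4a (−3.43) and Adnp (−3.31). Symbols that overlap a gene on the same strand, between which reads can be split differently by each annotation, made up 430 (33.2%) of the called and 3374 (24.5%) of the tested, and without them 841 were called. Of 13 mitochondrial transcripts tested, 7 fell and none rose, where 5.68% of all symbols fell and 3.72% rose. The cause was not tested.

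Of the 25 genes named above as higher or lower in the cluster, 5 passed the strain test (9.4% of all symbols did) and 3, Stac, 4933407E24Rik and Pou3f1, were too low in the cluster to be tested. Cux2 rose in DBA (1.05, SE 0.19, adjusted p = 0.0039), as did Hmcn1 (1.69, SE 0.22, adjusted p = 0.000389) and Gm20631 (1.08, SE 0.28, adjusted p = 0.0323), and Col25a1 (−1.18, SE 0.22, adjusted p = 0.00502) and Parm1 (−0.56, adjusted p = 0.0428) fell. Klf5 was at 10.2 and 21.7 CPM in B6 and 42.2 and 37.3 in DBA (1.27, SE 0.25, adjusted p = 0.00671). Trhr was at 29.6 and 44.5 CPM in B6 and 9.75 and 9.4 in DBA (−1.97, adjusted p = 0.000184). Cdc14a, by contrast, had a log2 difference of 0.09 (SE 0.18, adjusted p = 0.83).

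In the gene lists, read against 3.72% higher and 5.68% lower of all symbols, strain calls were spread over several lists. Of 14 CaM kinase genes 1 fell, Camkk1 (−0.48, adjusted p = 0.0496), of 27 glutamate receptor genes 1 fell, Cnih3 (−0.57), and of 23 sodium, calcium and HCN channels none was called. Of 12 GABA-A subunits, Gabra5 fell (−0.67, adjusted p = 0.00531). Of 38 potassium channel genes, Kcna4 (0.68) and Kcnj9 (0.54) rose and Kcnip2 (−0.73), Kcnip3 (−0.76) and Kcnq3 (−0.49) fell. Of 53 adhesion genes, Cdh4, Cdh7 (1.25) and Cdh9 (0.61) rose, and Flrt3, an adhesion protein of the latrophilin complex, fell from 230 and 212 to 119 and 130 CPM (−0.83, adjusted p = 0.000828).

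Of 35 transcription factors 2 rose and 3 fell. Neurod6 was at 47.5 and 45.3 CPM in B6 and 81.9 and 78.9 in DBA (0.79, adjusted p = 0.00191), and Klf12 at 313 and 184 against 120 and 122 (−1.03). Foxp1, a forkhead factor, was at 598 and 352 against 278 and 229 (−0.91), and Zfpm2 fell too (−0.98). Of 6 neuropeptides, Cck, at 88.7 and 83.7 CPM in B6 and 117 and 169 in DBA (0.72), and the enkephalin precursor Penk (2.11) rose, and Sst (−0.87), a marker of interneurons, fell. Of 19 activity-induced genes Bdnf rose (0.86, adjusted p = 0.015) and Inhba fell (−0.55). Of 32 receptors Htr1b (−1.10) and Trhr fell, and of 5 sex-linked genes none was called. Among markers of glia, Mbp (−0.60) and Mobp (−1.67) fell and Slc1a3 (0.75) rose, with the sums given above.

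Accessibility differed by strain at 6783 (2.39%) of 284059 peaks, 3428 (1.21%) higher and 3355 (1.18%) lower in DBA, and DESeq2 called 908. Without the B6 library numbered 3, or the DBA library numbered 2 or 3, 3086, 2630 and 2655 peaks were called. Of 6426 called peaks tested in all 3 clusters, 5435 differed in the same direction in both others. The 3 largest increases at a mean of 5 CPM or more and 10 or more counts in every library all lay at Sfi1, a centriole gene, at chr11:3157710-3158730 (3.81 and 3.46 CPM in B6, 119 and 107 in DBA, log2 difference 4.94, SE 0.13), chr11:3143955-3146269 (4.64) and chr11:3192223-3193882 (28.1 and 26.1 against 413 and 358). Sfi1 transcripts rose there too, from 42 and 32.3 to 275 and 320 CPM. Sfi1 and Pisd have near-identical partial copies in the mouse genome, and their values are uncertain for that reason. By the same level and counts, the largest decreases were at chr13:40236182-40237077 in an intron of Ofcc1 (9.93 and 9.67 against 0.999 and 1.06, log2 difference −3.26), chr8:70926064-70927072 (12.1 and 8.24 against 1.1 and 1.15) and chr13:119631438-119632117 in an intron of Ccl28 (−3.09).

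Promoter peaks and transcripts were set side by side. Of 358 symbols that rose in DBA and have a tested promoter peak, 26 (7.26%) had one that rose and 0.559% one that fell, and of 499 symbols that fell, 18 (3.61%) had one that fell and 1.8% one that rose. Among symbols not called, 2.27% had a promoter peak that rose and 0.686% one that fell. Fggy is an example, with its promoter peak chr4:95556791-95558977 at 21.5 and 19.1 CPM in B6 and 7.39 and 6.7 in DBA (−1.55, adjusted p = 7.05e-18).

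The difference of strain differences, Camk2d minus the mean of Galntl6 and Fras1, was tested with the library as a block. Of 15020 symbols, 51 (0.34%) were called, 33 (0.22%) with a more positive and 18 (0.12%) with a more negative DBA minus B6 difference in Camk2d. These few genes are those whose strain difference departed from the other CA1 clusters, and 13 of the 51 were also called by DESeq2. The count rested on single libraries, with 2 and 1 calls without the DBA library numbered 2 or 3 and 143 and 436 without the B6 library numbered 2 or 3. All 36 of the called symbols that overlap no gene on their strand were called when the 15 others were left out.

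Each of the genes first named had a more positive DBA minus B6 difference in Camk2d. Dpp10, an auxiliary subunit of A-type potassium channels, was at 698, 936, 893 and 865 CPM in Camk2d with overlap of the strains, but at 259, 284, 139 and 129 in Galntl6 and 3120, 3247, 2432 and 2186 in Fras1, where DBA was lower (difference of log2 differences 0.85, SE 0.09, adjusted p = 0.000303). Kcnip3, which also binds these channels, fell in all 3: 186, 185, 107 and 113 CPM in Camk2d, 86.3, 90.2, 24.9 and 26.5 in Galntl6 and 159, 164, 65.7 and 69.6 in Fras1, by less in Camk2d (0.76, adjusted p = 0.00189). Sgcz, a sarcoglycan, was at 280, 328, 352 and 361 in Camk2d, 105, 109, 64.7 and 46.6 in Galntl6 and 975, 869, 862 and 779 in Fras1, with DBA on the higher side in Camk2d and on the lower in both others (0.78, adjusted p = 0.00785). The latrophilin Adgrl2 was at 50.4, 59.8, 65.3 and 74.6 in Camk2d, 149, 174, 137 and 131 in Galntl6 and 208, 231, 152 and 160 in Fras1 (0.72, adjusted p = 0.00937).

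Other genes had strain values in opposite directions in some of the clusters. Zfp804b, a zinc finger gene, was at 88.7, 65.1, 129 and 120 CPM in Camk2d and 203, 245, 124 and 116 in Fras1, with overlap in Galntl6 (20.4, 17.6, 17.7 and 18.7), a difference of 1.19 (adjusted p = 0.00308). Cdh4, the cadherin R-cadherin, was at 26.3, 34.2, 41.2 and 56.1 in Camk2d, 62, 58.8, 41.7 and 36 in Galntl6 and 132, 151, 101 and 71.5 in Fras1 (1.33, SE 0.21, adjusted p = 0.00835). The collagen genes Col23a1 and Col25a1 were the reverse. Col23a1 was at 127, 179, 76.5 and 112 CPM in Camk2d, 46.5, 54.6, 86 and 63.4 in Galntl6 and 59.2, 58.5, 76.7 and 80.6 in Fras1 (−1.21, adjusted p = 0.00785). Col25a1, one of the lower genes of the cluster, fell in Camk2d and was at 134, 130, 170 and 185 in Galntl6 and 110, 140, 124 and 134 in Fras1 (−1.41, adjusted p = 0.00835). The proprotein convertase Pcsk5 was at 156, 142, 103 and 86.6 in Camk2d and 259, 261, 204 and 212 in Fras1, lower in DBA in both, and at 33, 29.3, 46 and 44 in Galntl6, higher in DBA (−0.76, adjusted p = 0.00669). Prag1 was at 58.8, 60.6, 64.3 and 70.3 in Camk2d, 36.7, 32.1, 78.9 and 76.8 in Galntl6 and 29.9, 28.6, 46.6 and 47.8 in Fras1 (−0.77, adjusted p = 0.0113). Of the genes in these paragraphs, Adgrl2, Pcsk5 and Prag1 were not called by DESeq2 (adjusted p = 0.145, 0.0618 and 0.4).

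Of other members of the gene lists, Bdnf, the neurotrophin, was at 17.5, 25, 35.8 and 42.7 in Camk2d, 14.4, 17.4, 18 and 19.1 in Galntl6 and 34.3, 23.1, 14.8 and 17.4 in Fras1 (1.16, adjusted p = 0.0376). Cdh9, which rose in Camk2d, was at 53.3, 56.5, 59.5 and 57.4 in Galntl6 and 36.4, 42.2, 41.6 and 36.1 in Fras1 (0.57, adjusted p = 0.0186). Both rose in DBA in the Camk2d cluster, where the strains did not overlap, and in Galntl6 the strains lay close together. Neither was called between clusters by DESeq2 (adjusted p = 0.394 for Bdnf and 0.648 for Cdh9).

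**Figure D5:**
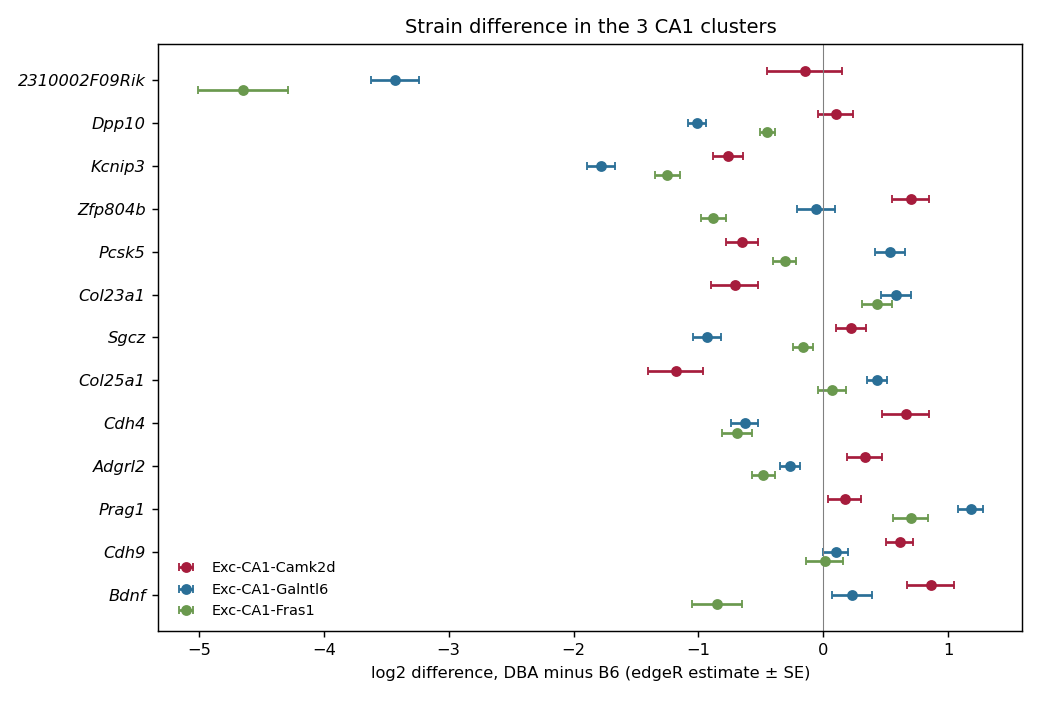
Log2 difference DBA minus B6 (points) with its SE (bars) in the Camk2d, Galntl6 and Fras1 clusters for 13 genes with a called difference between clusters, from edgeR fits within each cluster. For 2310002F09Rik, the strain difference is near 0 in Camk2d and strongly negative in the other clusters, and for Bdnf and Cdh9 it is positive in Camk2d.

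In accessibility, 133 (0.0451%) of 295146 peaks were called, 57 (0.0193%) more positive and 76 (0.0257%) more negative in Camk2d. DESeq2 called 3. Without the B6 library numbered 3, or the DBA library numbered 2 or 3, 16, 23 and 25 were called, and without the B6 library numbered 2, 89. The first by adjusted p was chr7:43796180-43798264, whose central sequence is given above, at 5.3, 6.92, 10.5 and 10.8 CPM in Camk2d, 11.1, 9.99, 7.32 and 6.89 in Galntl6 and 9.1, 8.02, 3.01 and 2.85 in Fras1 (1.79, SE 0.23, adjusted p = 4.5e-09). DBA was higher in Camk2d and lower in both others. The next were chr15:42428854-42430334 in an intron of Angpt1, an angiopoietin, at 10.3, 9.77, 10.4 and 10.7 in Camk2d but 8.6, 9.64, 3.48 and 3.64 in Galntl6 and 9.96, 11.6, 4.52 and 3.48 in Fras1 (1.46, SE 0.22, adjusted p = 1.34e-06, and 0.138 with DESeq2), and chr7:145282683-145284235, a promoter peak of the lysosomal channel gene Tpcn2, at 10.8, 12.8, 7.99 and 7.31, 11.4, 9.93, 2.42 and 2.31, and 11.8, 12, 2.32 and 2.43 (1.57, SE 0.23, adjusted p = 1.39e-06, and 0.0778 with DESeq2). At both, DBA was far lower in Galntl6 and Fras1, and in Camk2d the strains were alike or nearer each other.

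The chromosome 7 peak lies among the kallikrein genes, a family of secreted serine proteases, of which Klk8 (neuropsin) acts in hippocampal plasticity. The symbols within 100 kb were looked up after the peak was seen. Of 4 tested, 2 were called, against 0.34% of all symbols. The noncoding 2310002F09Rik (chr7:43695209-43797958, minus strand), whose start lies in the peak, was at 9.49, 21.4, 14.1 and 14.8 CPM in Camk2d, 40.5, 40.8, 4.53 and 2.82 in Galntl6 and 21.4, 22.9, 1 and 0.632 in Fras1 (3.92, SE 0.38, adjusted p = 6.3e-05). DBA was lower in both other clusters, and in Camk2d the strains overlapped. Klk12 followed it at 1.46, 5.28, 1.71 and 2.85 CPM, 15.1, 13.4, 0.906 and 0.883, and 6.03, 7.07, 0 and 0 (fitted difference 5.27, SE 0.98, adjusted p = 0.0228), where the DBA libraries of Fras1 held no count and the fitted value is no bound. Klk8, whose start also lies in the peak, was at 0.365, 0.834, 3.17 and 3.99 CPM in Camk2d, higher in DBA. Klk8 was at 2.74, 2.59, 2.57 and 1.77 CPM in Galntl6 and 0.696, 0.816, 0.502 and 0.316 in Fras1. All of these levels were low, and Klk8 (adjusted p = 0.231) and Klk9 (adjusted p = 0.78) did not pass.

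Of 22 peaks tested in the same 100 kb, 4 were called, all more positive in Camk2d, against 0.0451% of all peaks called. The window was set around the first of them, so the count follows in part from that choice. Besides the first, chr7:43780127-43781100 (1.97, adjusted p = 0.000692), chr7:43807385-43808295 (2.67, adjusted p = 0.00128) and chr7:43810843-43811801 (2.50, adjusted p = 0.0339) passed. The peak chr7:43807385-43808295 was at 1.82, 1.73, 9.19 and 8.02 CPM in Camk2d, 0.86, 0.871, 1.59 and 2.07 in Galntl6 and 1.03, 1.11, 0.348 and 0.211 in Fras1. There accessibility of the DBA libraries was several times that of B6 in the Camk2d cluster and lower than B6 in Fras1. Of the 51 called symbols, 3 (5.88%) had a called peak in the gene or within 500 bp, 2310002F09Rik, Ccdc80 and Tmtc2, against 54 (0.374%) of 14441 other symbols.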

How the data were processed

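Counts per gene and per peak were deposited by the authors as raw counts summed over the nuclei of each cell type in each snRNA-seq and snATAC-seq library, without normalization. Per their methods and processing notes, reads were mapped with Cell Ranger 6.0.2 (introns retained) and Cell Ranger ATAC 2.0.0 to mm10 for B6 and to SNP-swapped mm10 for DBA, with a GENCODE annotation. Doublets were removed with DoubletFinder, nuclei of snRNA-seq were integrated and clustered in Seurat 4.0.5, peaks were called per sample with MACS and merged, and cell type labels were transferred to snATAC-seq nuclei. The 32 columns of the 8 excitatory clusters were used in each table, which left 36 columns of the snRNA-seq table and 28 of the snATAC-seq table unused. Columns carry library numbers 2 and 3 where the sample labels number replicates 1 and 2, so columns were placed in a strain only. The 16 methylation samples of the 24 in the series were not analysed here.

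Strain (DBA minus B6) was tested in edgeR 4.0.16 (R 4.3.3, limma 3.58.1) with TMM normalization and the quasi-likelihood F test, Benjamini-Hochberg adjustment and a threshold of 0.05, after filterByExpr for symbols and at least 10 counts (30 over the 12 CA1 columns) for peaks, on features counted in both strains. Differences between clusters were tested as an interaction over the 12 CA1 columns with library as a block. With 2 libraries per strain, p-values come from models fitted across all features, and DESeq2 1.42.0 was an alternative. Ratios to the other CA1 clusters were taken within each library on log2 (CPM + 1), at a mean of 5 CPM (transcripts) or 2 CPM (peaks) in 1 cluster, with no test. The steps were tested on simulated data. Gene positions and types came from GENCODE release M21 and sequence from GRCm38, with words searched as exact matches on both strands. Ratios and figures were made in Python 3.11.15 with pandas 2.3.3, numpy 2.4.6 and matplotlib 3.10.9.

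The members, gene lists and markers were chosen with earlier results of these data known. Named genes were the 15 higher and 10 lower with the largest smallest ratio at 20 CPM or more, the 10 largest strain differences in each direction at 20 CPM or more with 10 or more counts in every library and no overlap of the strains, the 10 interactions with the smallest adjusted p by the same level and counts, and by similar rules 5 higher and 3 lower peaks and 3 peaks for each strain direction and for the interaction, plus Camk2d and members of each list. The FOX and other POU genes, the kallikrein locus, the genes most like Camk2d in level and peaks of named genes were looked up after values were seen. Some results are not reported here. The alternatives were DESeq2, RLE normalization, other filters, pseudocounts and folds, the library block, each library left out and, chosen after seeing the data, the omission of symbols that overlap a gene on the same strand.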

Additional observations from a re-analysis of the deposited data

Results flagged for a closer look

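The results below are strain differences (DBA minus B6, log2) that differed between the Camk2d cluster and the mean of the other CA1 clusters by edgeR's test of that difference. Among transcripts they were Dpp10 (0.85), Kcnip3 (0.76), Zfp804b (1.19), Sgcz (0.78), Cdh4 (1.33), Adgrl2 (0.72), Bdnf (1.16), Cdh9 (0.57), Schip1 (0.48), 2310002F09Rik (3.92) and Klk12 (5.27), more positive in the Camk2d cluster, and Pcsk5 (−0.76), Col23a1 (−1.21), Col25a1 (−1.41) and Prag1 (−0.77), more negative. Among peaks they were chr7:43796180-43798264 (1.79), chr15:42428854-42430334 (1.46) and chr7:145282683-145284235 (1.57), all more positive. Each cluster's values by library stand in the report. The clusters share libraries, and with 2 libraries of pooled animals per strain the differences between libraries and those between animals cannot be told apart. Klk12 had no count in the DBA libraries of the Fras1 cluster, so its size depends on the fit.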

How the results depend on the processing

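In the tests of strain within the Camk2d cluster, 1296 symbols were called, against 525 with DESeq2, 1970 with a minimum of 1 count and 2894 over all symbols. The last setting added symbols counted in 1 strain, with 14925 symbols tested against 13782. Of its calls, 61.9% were higher in DBA, against 39.6%. Calls rose by more than the symbols tested. Normalization, fit and adjustment were made anew over the larger set, and their parts in the rise were not tested. The count was 2087 with the replicate block, 841 without symbols that overlap a gene on the same strand (chosen after seeing the data), and 364 to 2165 with 1 library left out. For peaks, 6783 became 908 with DESeq2 and 2630 to 5977 with 1 library left out. The test of differences between clusters called 51 symbols, against 13 with DESeq2, 220 with a minimum of 1 count, 30 with no replicate block and 1 to 436 with 1 library left out, and 133 peaks, against 3, 84 with no replicate block and 16 to 89. The biological coefficient of variation of the strain fit was 0.131 without a DBA library and 0.0641 without a B6 library. The calls of 207 genes against the other CA1 clusters became 429 at a fold of 1.5 and 223 to 280 with 1 library left out, and the 1685 peaks became 4395 with a pseudocount of 0.1 CPM, 6369 at a fold of 1.5 and 1928 to 2397. RLE normalization kept the counts of all strain tests and of these ratios within 1.5 times. Other than by the construction of an alternative, the cause was not tested.

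The strain difference of Camk2d, not called, was 0.05, became −0.14 without B6 replicate 2 and −0.00 without DBA replicate 2, and reached 0.27 without B6 replicate 3. Of the other strain values of named transcripts under alternatives, 406 stayed on their side of the threshold and 68 lost the call, and for the difference between clusters 93 stayed and 36 lost the call for transcripts and 22 stayed and 2 lost it for peaks. Same-numbered libraries share only a number: their deviations from the strain means correlated at 0.103 over 7308 symbols and 0.0844 over 8816 peaks. All 1296 symbols were also called with the block, and the 6253 peaks called with it were within 1.5 times the main count. Depth sets the limit for low features: at 2656173 counts in the shallowest Camk2d library, a transcript at 1 CPM rests on few counts.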
